A study of Mus musculus with 9 samples.

Results

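The transcripts of 10 core circadian clock genes were followed in the lateral nasal gland, a secretory gland of the mouse nose: the positive-arm genes Arntl, Npas2 and Clock, and the negative-arm genes Per1, Per2, Per3, Cry1, Nr1d1, Nr1d2 and Bhlhe40. Members were chosen by name, and every probe set whose only annotated symbol was one of them was kept and treated separately. This gave 16 of the 22626 probe sets of a 1-colour Affymetrix array. All 9 arrays held gland RNA of male mice aged 2 to 3 months, each from a pool of 10 animals: 3 of Cyp2g1-null mice on a mixed background of 129/Sv and C57BL/6, 4 of wild-type B6 (C57BL/6) mice and 2 of wild-type 129/Sv mice. The null line lacks Cyp2g1, a cytochrome P450 of the nasal mucosa; because it is on a mixed background, both strains served as its controls, and each array counted as 1 replicate. Neither the time of day of dissection nor the light cycle is known from the labels.

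The mammalian clock is a feedback loop of transcription. ARNTL (also called BMAL1) pairs with CLOCK or with its paralogue NPAS2 and activates genes through E-boxes, among them the Per and Cry genes, whose products return to the nucleus and repress that pair. In a further loop, the same pair activates Nr1d1 and Nr1d2, which encode the REV-ERB repressors, and these act on Arntl, Npas2 and Clock through response elements that the retinoid-related orphan receptors also bind. BHLHE40 (DEC1) competes for E-boxes. In most mouse tissues Arntl and Npas2 transcripts peak when those of Nr1d1, Nr1d2 and the Per genes are low, and the reverse holds later in the cycle.

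The sequences below show where the letters of these elements occur near the members' start sites, because both arms are described by their opposite levels. They come from RefSeq windows of 300 bases, from 250 bases before to 50 after each annotated start on GRCm38.p6. These matched 8 of the 10 genes by symbol in 12 windows. Per2 and Bhlhe40 had no window and were not searched. The motifs searched on both strands were the E-box CACGTG, its variant CACGTT, the D-box TTATGTAA, which is bound by DBP, TEF, HLF and NFIL3, and AGGTCA, the core of the response element of the REV-ERB and ROR receptors. Of all 32851 windows, 7.15% held CACGTG, 4.68% CACGTT, 0.938% TTATGTAA and 16.3% AGGTCA. Capitals mark each match, read 5′ to 3′ on the gene's strand, where a match on the other strand appears as its reverse complement (AACGTG or TGACCT).
Per1 (chr11:69098753-69098818, plus strand): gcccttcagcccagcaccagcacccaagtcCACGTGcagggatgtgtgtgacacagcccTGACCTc
Cry1 (chr10:85185082-85185141, minus strand): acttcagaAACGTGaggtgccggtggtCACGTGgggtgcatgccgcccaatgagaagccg
Per3 (chr4:151044804-151044882, minus strand): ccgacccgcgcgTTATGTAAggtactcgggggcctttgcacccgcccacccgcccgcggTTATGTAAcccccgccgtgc
Nr1d1 (chr11:98775378-98775432, minus strand): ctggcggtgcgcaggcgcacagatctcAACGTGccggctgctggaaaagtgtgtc
Nr1d2 (chr14:18239151-18239210, minus strand): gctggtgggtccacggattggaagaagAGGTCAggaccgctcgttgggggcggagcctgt
Arntl (chr7:113207530-113207559, plus strand): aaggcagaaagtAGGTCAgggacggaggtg

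The Per3 window held the D-box letters at both 205 and 158 bases before the start. Among the member windows searched, which leave out Per2 and Bhlhe40, it was the one with that motif. The CACGTG of Per1 began 166 bases and that of Cry1 60 bases before the start, and the variant in Nr1d1 28 bases before it. The AGGTCA of Arntl began at base 32 of the transcript from its downstream start, and that of Nr1d2 77 bases before the start. A Clock window held AGGTCA on the opposite strand, while the Npas2 window held none of the 4 motifs. These matches describe letters in the windows and are not evidence of binding.

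Cyp2g1 had signals of 55.7 to 201.1 in null, 748.2 to 5916.8 in B6 and 207.5 to 981.2 in 129/Sv arrays. It fell in null against B6 glands (log2 fold change -4.07, adjusted p = 0.00268 with limma), whereas against 129/Sv, where null array 3 and 129/Sv array 1 were nearly equal, the value of -1.81 did not pass (adjusted p = 0.325), so the labels were checked against B6 alone. The labels do not say whether its probe set lies in the deleted part. The gland markers Obp1a, an odorant-binding protein, and Aqp5, a water channel, had signals of at least 112206 and 22669 on every array, whereas Car6, a secreted carbonic anhydrase, ran from 387.5 to 70057.5. Summed signals of 6 of 8 ciliated epithelium markers lay between 15249.9 and 15984.4 in null arrays. The sums lay between 9427.7 and 11515.2 in B6, and between 10382.9 and 12111 in 129/Sv arrays. In null against B6 glands 3 of these 6 rose, beside 1.11% of all tested probe sets. For 6 of 8 olfactory neuron markers the sums were 1740.5 to 5577.3, 2344.4 to 8524.1 and 1341.2 to 2234.7 in null, B6 and 129/Sv arrays. For 6 fibroblast and endothelium markers the sums were 40835.3 to 47101.1, 48373.5 to 59108.2 and 41084 to 41668.3 in the same order. The lowest signal of any probe set was 0.6 and no detection calls were used, so a signal above 0 does not show that a cell type was present. The part of other cell types in the results below was not tested. In pooled glands, fewer cells with a transcript and less of it per cell cannot be told apart.

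The null glands and 129/Sv glands stood at opposite ends for most clock genes, and B6 glands lay between them. Nr1d2 and Npas2 were the members whose differences passed the test. Nr1d2 fell 2.03-fold and Npas2 rose 4.21-fold in null against 129/Sv glands, and the same probe sets separated B6 from 129/Sv glands. The size of the Npas2 value is uncertain, because both 129/Sv signals lay below the array median and the call did not hold when single arrays were left out. No member passed in null against B6 glands. Testing required a signal over the median of its array on 2 or more arrays, and this held for 12 member probe sets, covering all 10 genes, among 12575 in the whole table. Fold changes are on the log2(signal + 16) scale, and adjusted p-values are from limma over all 12575 probe sets with a threshold of 0.05.

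In null against 129/Sv glands, 1 of the 12 rose and 1 fell, beside 2.04% of all tested probe sets called in either direction (1.41% higher and 0.628% lower). In B6 against 129/Sv glands 1 was higher and 1 lower, beside 5.19% (2.92% higher and 2.27% lower). Against the mean of both strains, 1 fell in null glands, beside 1.22% called (0.469% lower). In null against B6 glands 0 of the 12 passed, beside 2.18% called (1.11% higher and 1.07% lower). With an unadjusted p under 0.05 the last comparison held 2 of the 12, Nr1d1 and Nr1d2, beside 14.4% of all tested probe sets, and limma's eBayes without trend also called 0. By the same unadjusted measure 8 of the 12 passed in null against 129/Sv glands, beside 12% of all tested probe sets. Against the mean of both strains 6 passed, beside 11.9%, and in B6 against 129/Sv glands 3 passed, beside 17.4%. Among the 8 were both Nr1d2 probe sets, and Npas2 and Per2, which entered the test through arrays where they were high. The members were chosen with earlier results of these data known, so these counts are descriptions. The median log2 fold change of the 12 was -0.18 against B6, -0.38 against 129/Sv and -0.14 for B6 against 129/Sv, where the medians over all tested probe sets were 0.016, 0.003 and -0.013. These comparisons share arrays, so their values are not independent of each other.

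**Figure D1:**
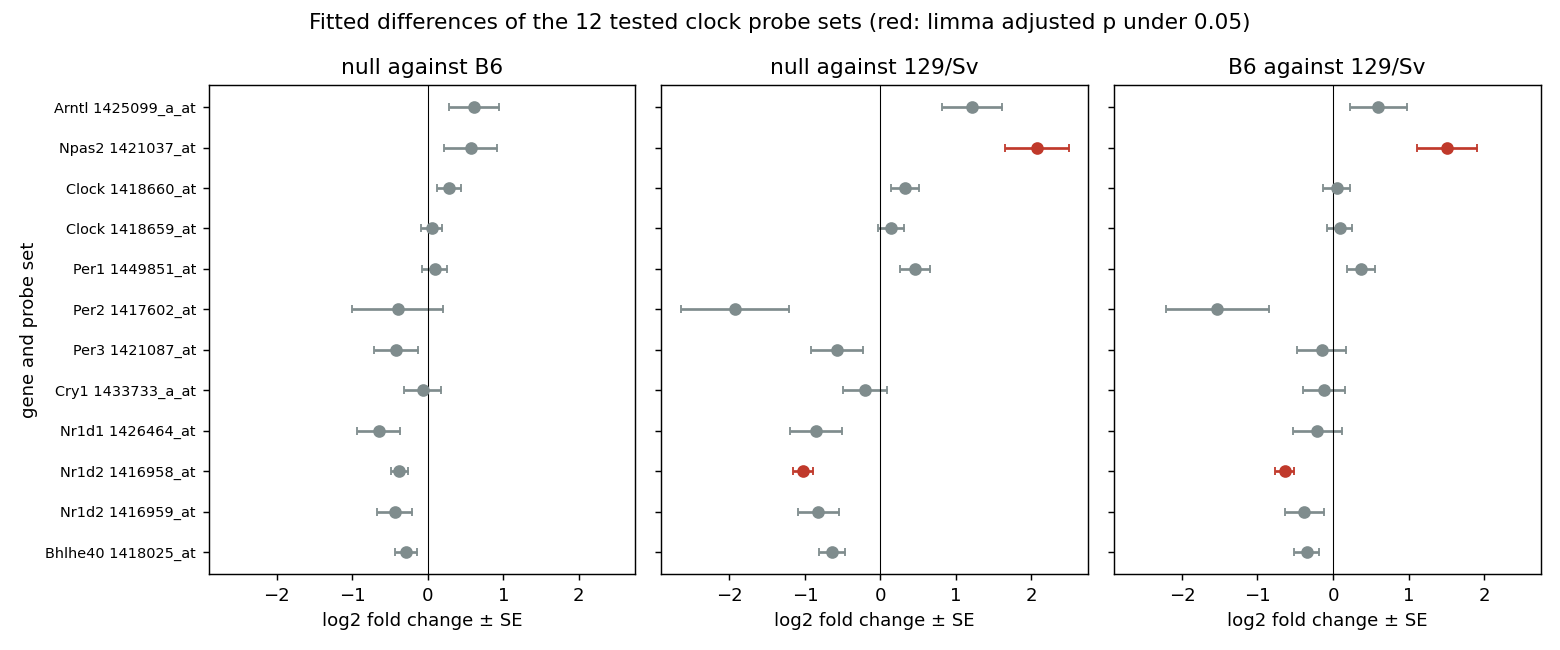
Log2 fold changes (x axis) with their standard errors (bars) for the 12 tested member probe sets (y axis) in null against B6, null against 129/Sv and B6 against 129/Sv glands. Red marks adjusted p under 0.05 (limma): Npas2 at 2.07 and Nr1d2 at -1.02 against 129/Sv, and the same probe sets at 1.51 and -0.64 between the strains.

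Arntl encodes the partner that both CLOCK and NPAS2 need. Its probe set (1425099_a_at, chromosome 7) had signals of 1004.5, 1539.3 and 1551.8 in null arrays, 1084, 1104.4, 971 and 492.9 in B6 arrays, and 934.1 and 345.1 in 129/Sv arrays. All null arrays lay above both 129/Sv arrays, while the B6 range overlapped both other groups. B6 arrays 1 and 2 lay within the null range and B6 array 3 just below it. B6 array 4, far below those arrays, lay within the 129/Sv range. Its log2 fold change was 0.61 (SE 0.33, adjusted p = 0.424) in null against B6 and 1.21 (SE 0.395, adjusted p = 0.174) in null against 129/Sv glands. Between B6 and 129/Sv it was 0.6 (SE 0.374, adjusted p = 0.46). None of these passed. The 129/Sv arrays decided the size of the Arntl value against null: it was 1.91 without 129/Sv array 1, which passed (adjusted p = 0.0374 with limma), and 0.51 without 129/Sv array 2 (adjusted p = 0.9). Without 129/Sv array 2 the value in B6 against 129/Sv glands was -0.1.

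Npas2, the paralogue that can stand in for CLOCK, showed the clearest order of the positive arm. Its brighter probe set (1421037_at, chromosome 1) had signals of 652.7, 650.7 and 682.2 in null arrays, 433.2, 611.5, 488.4 and 292.6 in B6 arrays, and 94.8 and 217.9 in 129/Sv arrays. The 3 groups did not overlap, an order of null above B6 above 129/Sv seen in 0.39% of tested probe sets. It passed the filter through the 3 null arrays and B6 array 2 alone, so it was bound to be high there. Npas2 rose in null against 129/Sv glands (log2 fold change 2.07, SE 0.421, adjusted p = 0.0193 with limma) and was higher in B6 than in 129/Sv glands (1.51, SE 0.399, adjusted p = 0.0431 with limma). In null against B6 glands the value was 0.57 (SE 0.352, adjusted p = 0.496). Neither call was stable when 1 array was removed. Dropping 129/Sv array 1 left 1.53 in null against 129/Sv glands (adjusted p = 0.145 with limma), and dropping a null array left adjusted p = 0.0728 to 0.0804. In B6 against 129/Sv glands, dropping 129/Sv array 1 left 0.97 (adjusted p = 0.338 with limma), dropping B6 array 1, 2 or 3 left 0.0552, 0.109 and 0.0964, and dropping null array 1, 2 or 3 left 0.0762, 0.0737 and 0.0727. Its dimmer probe set (1421036_at) lay under the median of every array, at 32.9 to 54.3 in null, 48.3 to 141.7 in B6 and 21.3 to 26.1 in 129/Sv arrays.

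Clock varied least among the positive arm. The brighter of its probe sets (1418660_at, chromosome 5) had signals of 1962.7, 1816.5 and 2238.7 in null arrays, 2102.1, 1733.4, 1561.2 and 1275.5 in B6 arrays, and 1571.1 and 1597.9 in 129/Sv arrays. The null arrays were above both 129/Sv arrays and overlapped B6, and B6 array 4 was the lowest of the 9. Its log2 fold changes of 0.28 against B6 and 0.33 against 129/Sv did not pass (SE 0.157 and 0.187, adjusted p = 0.44 and 0.544). The second probe set (1418659_at) ranged from 1105.7 to 1518.9 with overlapping groups and fold changes of 0.05 and 0.14, and B6 array 1, second highest on the first probe set, was the lowest on it.

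**Figure D2:**
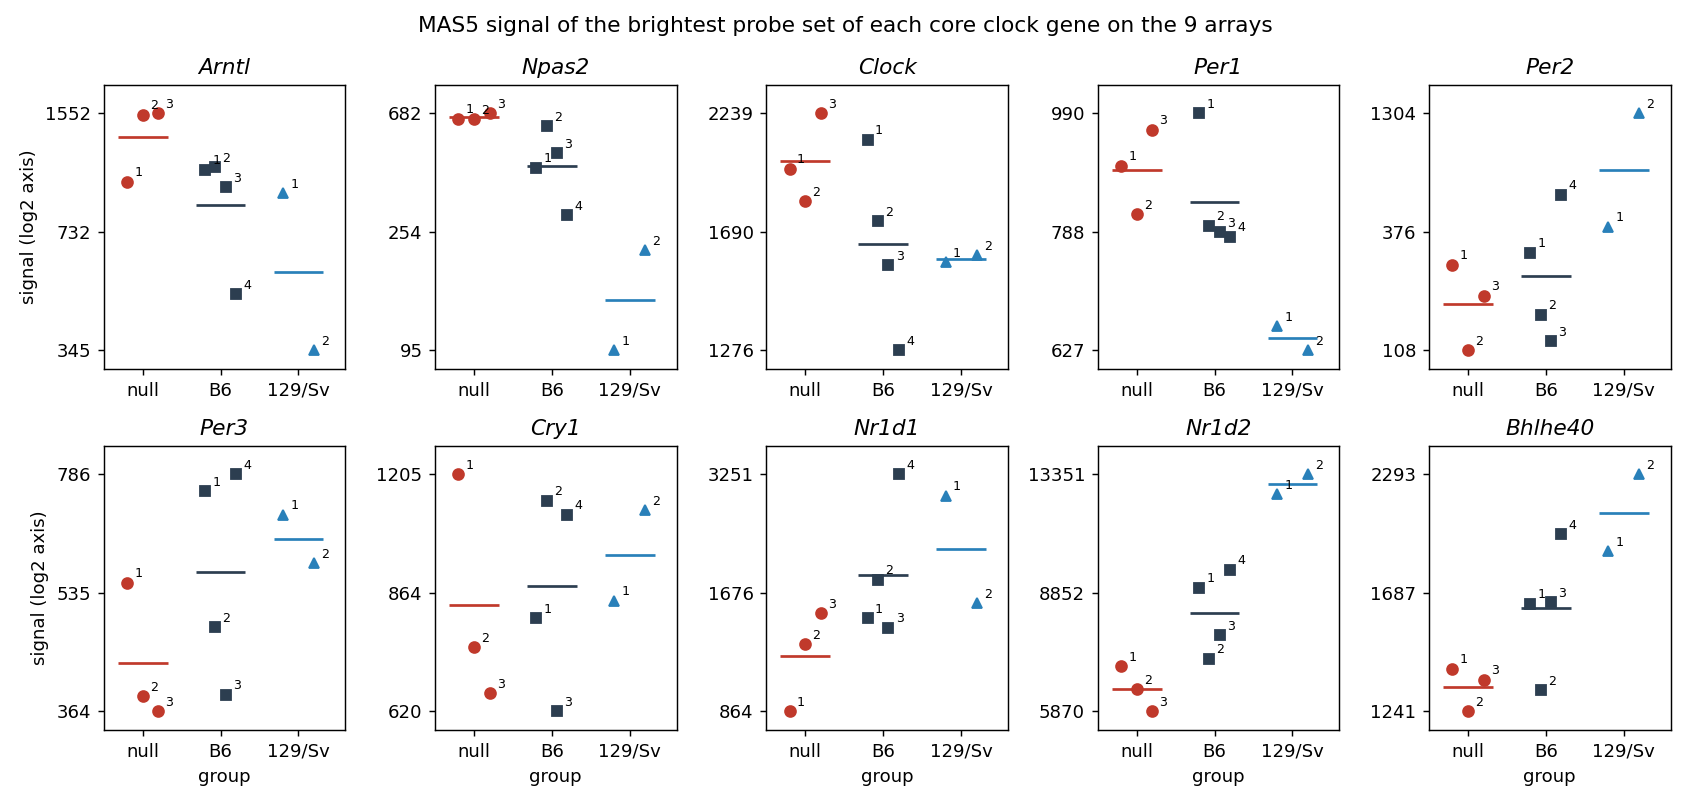
Signals of the brightest probe set of each gene (y axis, log2 scale) in the 3 null, 4 B6 and 2 129/Sv arrays (x axis), with replicate numbers beside the points and the geometric mean of each group as a bar. Npas2 and Nr1d2 separate all 3 groups, and B6 array 4 is the lowest B6 array for Arntl (492.9) and the highest for Nr1d1 (3251.4).

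Of the period genes, whose proteins form the repressing complex with the cryptochromes, Per2 varied most. Its brighter probe set (1417602_at, chromosome 1) had signals of 266.2, 108.5 and 192.5 in null arrays, 302.6, 157.7, 119.5 and 554.5 in B6 arrays, and 396.6 and 1303.5 in 129/Sv arrays. It spanned 3.41 on the log2 scale over the 9 arrays, with 129/Sv array 2 and B6 array 4 highest, and these were the 2 arrays on which it exceeded the array median. Its log2 fold change was -1.93 in null against 129/Sv glands (SE 0.717, adjusted p = 0.255) and -0.4 in null against B6 glands (SE 0.6, adjusted p = 0.81). The second probe set (1417603_at), below the median of every array, had 209.2 to 363.1 in null, 92 to 389.8 in B6 and 438.3 to 467.2 in 129/Sv arrays, so 129/Sv was again highest, while B6 array 4, at 284.5, was not the highest B6 array.

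Per1 ran with the positive arm across groups. This period gene is also induced by glucocorticoids and by cAMP signalling. Its signals (1449851_at, chromosome 11) were 895, 815.1 and 959.8 in null arrays, 990.4, 797.4, 787 and 780.6 in B6 arrays, and 656.2 and 626.6 in 129/Sv arrays. Both 129/Sv arrays lay below all others. The log2 fold change was 0.46 in null against 129/Sv glands (SE 0.198, adjusted p = 0.36) and 0.37 in B6 against 129/Sv glands (SE 0.188, adjusted p = 0.333). Against B6 it was 0.09 (SE 0.166, adjusted p = 0.856), so no Per1 difference passed.

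Per3, whose window carries the D-box letters shown above, was lower in null than in 129/Sv arrays without passing. Its bright probe set (1421087_at, chromosome 4) had signals of 552.5, 382.4 and 363.9 in null arrays, 743.9, 478.3, 383.8 and 786.2 in B6 arrays, and 690 and 589.5 in 129/Sv arrays. The null arrays lay below both 129/Sv arrays and overlapped B6, where arrays 1 and 4 were high and arrays 2 and 3 low. Its log2 fold changes were -0.42 against B6 and -0.57 against 129/Sv (SE 0.289 and 0.346, adjusted p = 0.544 and 0.589). The other Per3 probe sets, 1460662_at and 1421086_at, had signals of 9 to 233.5 and 13.2 to 250.1, below the median of every array.

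Cry1, a cryptochrome, showed no order between the groups. Its signals (1433733_a_at, chromosome 10) were 1204.6, 742 and 652.1 in null arrays, 805, 1119.6, 620.1 and 1076.5 in B6 arrays, and 845.2 and 1089.8 in 129/Sv arrays. All groups overlapped, and the log2 fold changes of -0.07 against B6 and -0.2 against 129/Sv had standard errors larger than themselves (0.246 and 0.294). In other mouse tissues Cry1 peaks later than the Per genes.

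Nr1d2, which encodes REV-ERB beta, had the most firmly called difference. Its brighter probe set (1416958_at, chromosome 14) had signals of 6862.7, 6338.3 and 5869.6 in null arrays, 9005.4, 7039.2, 7641.1 and 9592.5 in B6 arrays, and 12469.4 and 13351.1 in 129/Sv arrays. The 3 groups did not overlap, and the order of null below B6 below 129/Sv held for 0.199% of tested probe sets. Nr1d2 fell in null against 129/Sv glands (log2 fold change -1.02, SE 0.134, adjusted p = 0.000622 with limma) and against the mean of both strains (-0.7, SE 0.106, adjusted p = 0.00418 with limma). It was also lower in B6 than in 129/Sv glands (-0.64, SE 0.127, adjusted p = 0.00769 with limma), which did not pass once 129/Sv array 1 or 2 was dropped (adjusted p = 0.0505 and 0.098). In null against B6 glands the log2 fold change of -0.38 (SE 0.112) did not pass (adjusted p = 0.109). Against 129/Sv the call held in each of the 9 fits that left out an array (highest adjusted p = 0.0144). The second probe set (1416959_at) had 526.9, 665.3 and 902.4 in null arrays, 774.7, 867.2, 876.1 and 1257.8 in B6 arrays, and 980.7 and 1499 in 129/Sv arrays. Its group means had the same order, but B6 overlapped both other groups. The log2 fold changes were -0.82 in null against 129/Sv glands (SE 0.272, adjusted p = 0.187 with limma) and -0.38 in B6 against 129/Sv glands (SE 0.258, adjusted p = 0.505). Neither passed.

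Nr1d1, which encodes REV-ERB alpha, differed from its paralogue in which array was highest. Its signals (1426464_at, chromosome 11) were 864.4, 1258.4 and 1494.8 in null arrays, 1452.7, 1804.2, 1378.6 and 3251.4 in B6 arrays, and 2887.3 and 1583.2 in 129/Sv arrays. B6 array 4 and 129/Sv array 1 stood above the other 7, and null lay below 129/Sv but overlapped B6. The log2 fold changes were -0.65 against B6 and -0.85 against 129/Sv (SE 0.285 and 0.341, adjusted p = 0.316 and 0.307). Bhlhe40, the E-box repressor, had signals (1418025_at, chromosome 6) of 1386.1, 1240.7 and 1346.6 in null arrays, 1640.2, 1310.2, 1646.6 and 1963.5 in B6 arrays, and 1877.8 and 2292.7 in 129/Sv arrays. Null lay below 129/Sv, and B6 array 2 fell within the null range. Its log2 fold change was -0.64 against 129/Sv (SE 0.174, adjusted p = 0.087) and -0.29 against B6 (SE 0.146, adjusted p = 0.383).

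Between null and 129/Sv arrays, 10 of the 12 tested probe sets did not overlap, 4 with null higher (Arntl, Npas2, Clock and Per1) and 6 with null lower (Per2, Per3, Nr1d1, both of Nr1d2 and Bhlhe40), beside 31.5% of all tested probe sets in either direction (16.2% higher and 15.2% lower). Npas2 and Per2 entered the test through the arrays where they were high. Between null and B6 arrays 1 was higher (Npas2) and 1 lower (Nr1d2), beside 13.5% (7.51% higher and 6.01% lower). These are also the members in which null lay above (2.9% of tested probe sets) or below (1.96%) all 6 wild-type arrays. Between B6 and 129/Sv arrays 2 were higher (Npas2 and Per1) and 1 lower (Nr1d2), beside 25.1% (12.2% higher and 12.9% lower). With 3 against 2 arrays a lack of overlap is common, and these counts are descriptions.

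The balance of the arms was then read array by array. For each gene the brightest probe set was centred on its mean over the 9 arrays, and the mean deviation of the 7 negative-arm genes was subtracted from that of the 3 positive-arm genes. This arm difference is a relative log2 measure and not a time of day. It was 0.45, 0.94 and 0.92 on the null arrays, 0.11, 0.43, 0.42 and -1.04 on the B6 arrays, and -0.97 and -1.25 on the 129/Sv arrays. All null arrays lay above every wild-type array, by as little as 0.45 against 0.43. This order depended on Npas2: without it null array 1 would not lie above B6 array 3. The deviations of Npas2 on these arrays were 0.69 and 0.29. B6 array 4 lay among the 129/Sv arrays rather than with the other B6 arrays. Group means were 0.77 ± 0.28 (SD, n = 3) for null, -0.02 ± 0.69 (SD, n = 4) for B6 and -1.11 ± 0.2 (SD, n = 2) for 129/Sv, with no test since the members were chosen as a set.

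Among the arrays left out singly, B6 array 4 changed the null minus B6 difference of 0.79 most, to 0.45. The null minus 129/Sv difference was 1.88 and B6 minus 129/Sv 1.09, with 1.74 to 2.04 and 0.94 to 1.43 when 1 array was left out. Leaving out Npas2, which had the largest difference of the positive arm, gave 1.45 and 0.7. On B6 array 4, Arntl was 0.87 and Npas2 0.42 below their means over the arrays, given as log2 deviations of -0.87 and -0.42, while Per2 and Nr1d1 were above theirs by 0.95 and 0.98. On 129/Sv array 2 the deviations were -1.37 for Arntl and 2.16 for Per2, yet -0.05 for Nr1d1, and on 129/Sv array 1 they were 0.03 for Arntl, 0.48 for Per2 and 0.81 for Nr1d1. The members therefore did not share 1 profile. Arntl and Nr1d1 stood opposite on B6 array 4, whereas on 129/Sv array 1 Nr1d1 was high with Arntl near its mean. On 129/Sv array 2 Arntl was lowest with Nr1d1 near its own mean. Within the null group, array 1 had the lowest Nr1d1 (-0.92) and the highest Cry1 (0.44), while arrays 2 and 3 had the highest Arntl (0.74 and 0.75).

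**Figure D3:**
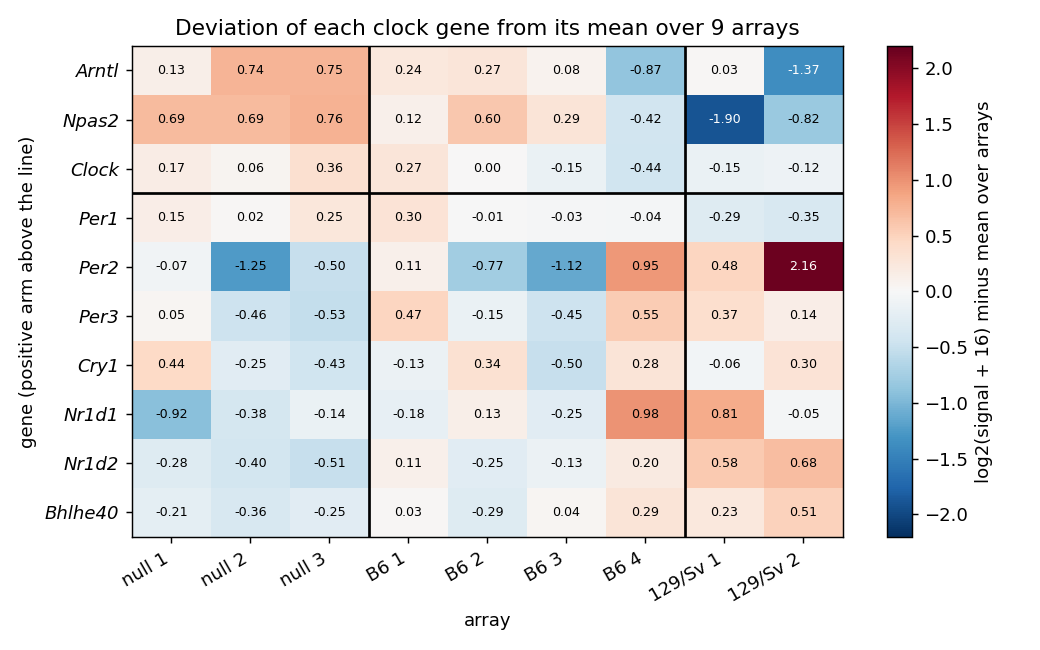
Log2 deviation of each member's brightest probe set (rows, positive arm above the line) from its mean over the 9 arrays (columns, null, B6 and 129/Sv). Per2 reaches 2.16 on 129/Sv array 2 and Npas2 -1.9 on 129/Sv array 1, and the colours of Arntl and Npas2 oppose those of Per2, Nr1d2 and Bhlhe40 on most arrays.

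**Figure D4:**
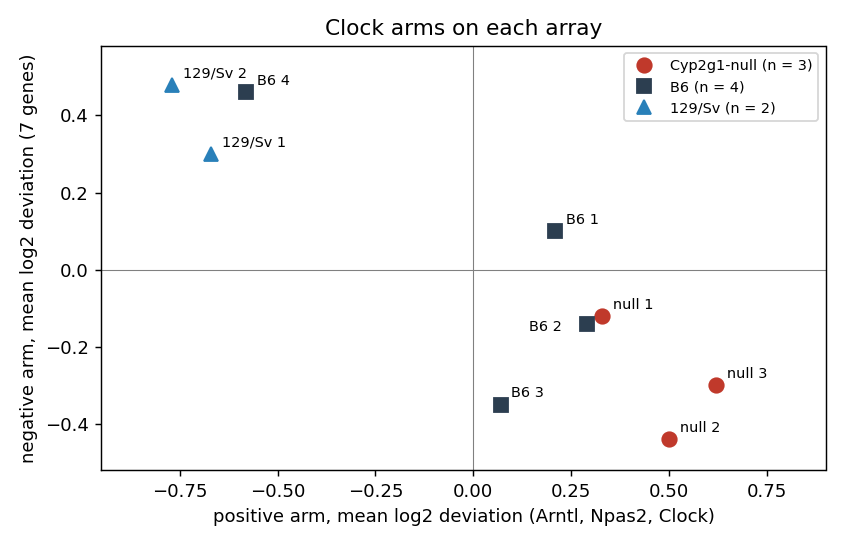
Mean log2 deviation of the positive arm (x axis) against that of the negative arm (y axis), 1 point per array, coloured by group (null, B6, 129/Sv). B6 array 4 (-0.58, 0.46) sits with 129/Sv arrays 1 and 2 (-0.67, 0.3 and -0.77, 0.48), and the other 6 arrays have positive x values.

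Across the 9 arrays the level of each other member was correlated with that of Arntl, a family of 9 relations. Bhlhe40 ran opposite to Arntl (Pearson r = -0.89, exact permutation p = 0.000254, adjusted 0.00228, Spearman rho = -0.93, exact permutation p = 0.00075, adjusted 0.00675). Per2 (r = -0.88, exact permutation p = 0.00193, adjusted 0.00871, rho = -0.75, exact permutation p = 0.0255, adjusted 0.0382) and Nr1d2 (r = -0.79, exact permutation p = 0.0133, adjusted 0.0398, rho = -0.9, exact permutation p = 0.00203, adjusted 0.00913) also ran opposite to it. All p-values are two-sided. Without the 2 arrays farthest from the Arntl median, 129/Sv array 2 and B6 array 4, r was -0.72 for Bhlhe40, -0.48 for Per2 and -0.7 for Nr1d2, and none passed (exact permutation p = 0.0734, 0.27 and 0.0663, 7 arrays). The calls were lost without those arrays, which were picked by their Arntl values. The 7 arrays left are fewer and hold a narrower range of Arntl, so this cannot decide whether the relations rest on the 2 left out. The size of r fell most for Per2, whose probe set exceeded the array median on those 2 arrays alone. With group means removed, r was -0.81, -0.84 and -0.64 in the same order (exact permutation within groups, p = 0.0521, 0.0486 and 0.0451 before adjustment). After adjustment over the 9 relations each of these 3 had an exact permutation p = 0.156, so none passed with the groups taken into account.

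The other 6 relations did not pass on Pearson's r after adjustment. Clock (r = 0.68, rho = 0.75), Per1 (0.65 and 0.8) and Npas2 (0.56 and 0.82) ran with Arntl, with exact permutation p-values for r of 0.0461, 0.0525 and 0.106 and adjusted p-values for rho of 0.0382, 0.0311 and 0.0311. Per3 (-0.58 and -0.7), Cry1 (-0.55 and -0.33) and Nr1d1 (-0.4 and -0.43) ran against it, with exact permutation p-values for r of 0.104, 0.132 and 0.29. With group means removed r was -0.08 for Npas2 and 0.02 for Nr1d1. No time or batch label was given by which to repeat the relations, and arrays of a group share a strain.

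Likeness to Arntl was ranked among 947 probe sets outside the members with 1 symbol and an SD of at least 0.5 on the log2 scale. Those most like Arntl over the 9 arrays were Myrf (r = 0.95), Ino80c (0.92), Atxn2 (0.86), Cds2 (0.86) and 4833439L19Rik (0.84). Myrf, Ino80c, Atxn2 and Cds2 lay below the array median on most arrays, so the size of their variation is uncertain. The most opposed were G0s2 (-0.92), both probe sets of Usp2 (-0.9 and -0.87), Tef (-0.88) and Cyp2b10 (-0.83). Usp2, a deubiquitinase, and Tef, a D-box activator, were the listed clock outputs among them. G0s2, an inhibitor of adipose triglyceride lipase, had signals of 3292.3, 3137.6 and 3256.9 in null arrays, 2964.1, 4144.2, 3691 and 8728.4 in B6 arrays, and 4749.9 and 8713.3 in 129/Sv arrays, highest on B6 array 4 and 129/Sv array 2. Myrf, a membrane-bound transcription factor, was lowest on the same arrays, at 49 and 28.2, against 306 to 728.5 in null arrays. These likenesses are descriptions over arrays that share strain and pool.

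Genes through which the clock acts or is adjusted were counted from lists. Of 10 output genes 9 had a probe set and were tested. Against B6 1 fell in null glands, beside 1.07% of all tested probe sets. Against 129/Sv 3 fell and 1 rose, beside 0.628% and 1.41%. In B6 against 129/Sv glands 1 was lower and 1 higher, beside 2.27% and 2.92%. Median log2 fold changes were -0.34, -0.72 and -0.25 in that order. The list was chosen with earlier results of these data known. Dbp, a D-box activator driven by E-boxes, had signals of 1377.7 to 2006.8 in null, 3412 to 11595.4 in B6 and 14034.5 to 18835.8 in 129/Sv arrays, and it fell against B6 (-1.96, adjusted p = 0.0136 with limma) and 129/Sv (-3.34, adjusted p = 0.000819). Within B6, Dbp had 11595.4 on array 1 and 11104.9 on array 4, and 3412 on array 2 and 3436.5 on array 3. Tef had 3816.8 to 4437.5, 4353.4 to 7365.3 and 7429.6 to 11204.9 in null, B6 and 129/Sv arrays, and fell against 129/Sv (-1.13, adjusted p = 0.00873 with limma). Usp2 fell against 129/Sv (-1.55, adjusted p = 0.0194 with limma) and was lower in B6 than in 129/Sv glands (-1.21, adjusted p = 0.03). Nfil3, the repressor of D-boxes, was lowest in 129/Sv arrays, with 2025.8 to 2879.7 in null, 1458.6 to 3160.6 in B6 and 693.6 to 911.3 in 129/Sv arrays. Its null range lay within the B6 range (0.13 against B6, adjusted p = 0.855 with limma). Nfil3 rose in null against 129/Sv glands (1.57, adjusted p = 0.00966 with limma) and was higher in B6 than in 129/Sv glands (1.44, adjusted p = 0.00586).

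Of 20 clock partners, which include further repressors, the ROR receptors, casein kinases and ubiquitin ligases, 16 had a probe set, 12 were tested and 0 passed in any comparison. Their median log2 fold changes were 0.05, -0.08 and -0.01 in the same order of comparisons. Nono, an RNA-binding partner of the PER proteins, and Fbxw11, a ubiquitin ligase subunit, had -0.05 and -0.14 against B6 and -0.04 and -0.12 against 129/Sv (adjusted p = 0.848, 0.567, 0.929 and 0.794 with limma). Of 9 glucocorticoid-induced genes 8 were tested. Among them Dusp1, a MAP kinase phosphatase, rose against B6 (1.64, adjusted p = 0.0476 with limma), beside 1.11% of all tested probe sets. Klf9 and Mt1, the brightest of that list, had -0.1 and 0.13 against B6 (adjusted p = 0.609 and 0.61 with limma).

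Immediate early genes, which share inducers with Per1 and Bhlhe40, had higher summed signals in the null group than in most wild-type arrays. Of 17 with a probe set 14 were tested. Against B6 2 rose (Ccn1, a matricellular protein, and Dusp1), beside 1.11% of all tested probe sets. Against 129/Sv 2 rose (Jun and Btg2), beside 1.41%. Median log2 fold changes were 0.33 and 0.38. Ccn1 had 2690.8 to 5702.6, 784.8 to 1297.4 and 1294.1 to 1826.4 in null, B6 and 129/Sv arrays (1.73 against B6, adjusted p = 0.00151 with limma). Jun and Btg2 had log2 fold changes of 0.92 and 0.99 against 129/Sv (adjusted p = 0.036 and 0.0139 with limma). The summed signal of the 17 genes was 45875.1 to 92103.8 in null, 32488.7 to 43353.2 in B6 and 35475.4 to 46925.9 in 129/Sv arrays, highest on null array 2, where Per1, at 815.1, was the lowest of the null arrays and Bhlhe40, at 1240.7, the lowest of the 9. The part of these genes in the clock values was not tested.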

How the data were processed

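The authors deposited signal intensities on a linear scale for 22690 probe sets on 9 arrays. The submitters' processing notes name MAS5, without a version. Mean signals after trimming 2% at each end were 1500.6 on all arrays, so the arrays had been scaled alike. After 64 control probe sets were left out, log2(signal + 16) of the deposited values was fitted with a mean per group in limma 3.58.1 (R 4.3.3, lmFit, eBayes with trend), with the 3 groups sharing an estimate of the spread. Tests are two-sided with Benjamini-Hochberg adjustment over 12575 probe sets above their array median on at least 2 arrays. No detection calls were used. Precision is limited by how few arrays there are. The labels do not say whether pools of a group were prepared independently, so p-values measure the spread between these pools. The fit was tested on simulated data. The clock members and all gene lists were chosen with earlier results of these data known. Named genes were all member probe sets, up to 4 passing genes of each list (or its 2 brightest where fewer than 2 passed), the 5 most like and 5 most unlike Arntl, Cyp2g1, and markers. Obp1a, Aqp5 and Car6 were named after their values were seen. Motifs were searched in RefSeq windows.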

Additional observations from a re-analysis of the deposited data

Results flagged for a closer look

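Among the 4 B6 arrays, 1 array stood apart for 2 of the 17 measures examined (16 probe sets and the arm difference), where chance gives about 1 in 20. Arntl on B6 array 4 had a signal of 492.9, with the other B6 arrays at 971 to 1104.4. Per1 on B6 array 1 had a signal of 990.4, with the other B6 arrays at 780.6 to 797.4.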

How the results depend on the processing

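Under quantile normalization, without a filter, or fitting just the arrays of both groups, the members called in B6 against 129/Sv glands were 1, through loss of Npas2 (adjusted p = 0.066, 0.0658 and 0.161 with limma). The filter at the 75th percentile tested 4 member probe sets and called 1 in each comparison with 129/Sv. eBayes without trend called 0 members against the mean of both strains (Nr1d2 adjusted p = 0.0567), and 154, 166 and 59 probe sets in all against B6, 129/Sv and their mean, in place of 274, 256 and 154. With the 6 wild-type arrays as 1 group these counts were 0 members and 4 probe sets. Bhlhe40 passed against 129/Sv when just those groups were fitted (adjusted p = 0.0464). With equal array medians the split of higher and lower calls was 139 and 111 against 129/Sv, in place of 177 and 79, and 81 and 80 against the mean, in place of 95 and 59. Leaving out 1 array gave 153 to 611 probe sets against B6, 127 to 326 against 129/Sv, 58 to 292 against the mean and 341 to 863 between the strains, with 0, 1 to 2, 1 and 0 to 2 members. Over all tested probe sets, same-numbered arrays did not vary together (correlations of -0.075 to 0.096 over 7 pairs). Such a check cannot show a batch that acts on few genes, and whether same-numbered arrays shared a batch was not tested. With the replicate number as a block, members called were 0, 2, 1 and 2 and probe sets 221, 281, 138 and 558, and no member's call changed. The null minus 129/Sv arm difference was 1.36 with the mean of all probe sets of a gene. Members correlated with Arntl at an adjusted p under 0.05 on Pearson's r numbered 3, and 0 with group means removed or without the 2 extreme arrays. Quantile normalization also ended that call for Nr1d2 (r = -0.76). The alternatives without Npas2 or Nr1d2 were chosen after seeing the data. No called value changed sign in any setting run. The cause of these changes was not tested. Signals below the array median, as for Npas2 in 129/Sv and Per2 on most arrays, leave the size of a fold uncertain.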
